A study of Mus musculus with 16 samples.

Results

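Mitochondrial ribosomal protein genes were described as all entries of the count table whose symbol begins with Mrpl or Mrps. The rule found 77 of 24421 entries, 48 named Mrpl and 29 named Mrps, and used no measured value. By the known position of each protein, 50 belong to the large subunit and 26 to the small subunit. Mrps30 and Mrps18a carry a small-subunit symbol but are large-subunit proteins, and Mrps36 is now known as a component of the 2-oxoglutarate dehydrogenase complex, so 76 of the 77 encode ribosomal proteins. The libraries measured polyadenylated RNA from mouse ventricle as read counts per gene. All 77 genes passed the filter on low counts that left 13522 genes in the test, and their counts per library ran from 168 for Mrpl47 to 4129 for Mrpl42.

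The mitochondrial ribosome, or mitoribosome, translates the few messenger RNAs made from mitochondrial DNA, all of which code for core subunits of the respiratory chain and the ATP synthase. Its RNAs come from mitochondrial DNA, but its proteins are encoded in the nucleus, made in the cytosol and imported. Some have counterparts in the bacterial ribosome, and others are found only in mitochondrial ribosomes. Cardiac muscle is rich in mitochondria, and inherited defects of several of these proteins, Mrpl3, Mrpl44 and Mrps22 among them, cause cardiomyopathy.

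There were 4 groups of 4 libraries, from C57BL/6N mice that the labels give as male. Wildtype (WT) littermates and JP2CR mice had sham surgery or trans-aortic constriction (TAC), a banding of the aorta that overloads the left ventricle, at 9 to 10 weeks of age, and ventricles were taken 5 weeks later. JP2CR mice carry a germline knock-in that removes codons 563 to 568 of Jph2, the gene of junctophilin-2, to make the protein resistant to the protease calpain. No other allele or agent is given for any group. The groups are WT sham, WT TAC, JP2CR sham and JP2CR TAC, and as the labels do not say which animal gave which library, each p-value reflects only how these libraries vary.

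Total counts ran from 9966782 to 16609732 per library. The 12 cardiomyocyte markers were detected in every library. Against the label of male mice, Xist was detected at 189 CPM (the read count scaled by the library's size) in the library JP2CR sham 3, at 196 CPM in JP2CR sham 4 and at 141 CPM in JP2CR TAC 4. In the other 13 libraries it was at most 0.266 CPM. The summed Y-linked genes were at 0 in JP2CR sham 3 and 4 and at 118 CPM in JP2CR TAC 4. In the other 13 libraries they were at 179 to 237 CPM, so JP2CR TAC 4 alone held both Xist and Y-linked counts at such levels. WT TAC 3 lay between WT TAC 1 and 2 at 94.2% of the 827 genes that differed by over 1.5-fold between them, and JP2CR TAC 3 lay between JP2CR TAC 1 and 2 at 94.9% of 805 such genes, where the median over all 48 such combinations within groups was 67.2%. Sham libraries reached similar shares over fewer genes. WT sham 4 lay between WT sham 2 and 3 at 95.05% of 101 genes, and WT sham 3 and 4 each lay between WT sham 1 and 2 at 92.6% of 243. The summed level of 12 atrial markers was 1651 to 2659 CPM in WT sham, 142 to 399 in WT TAC, 229 to 2534 in JP2CR sham and 504 to 777 in JP2CR TAC. That of 10 adipocyte markers was 42.7 to 209 CPM in WT sham, 29.8 to 36.8 in WT TAC, 25.4 to 220.4 in JP2CR sham and 34.2 to 99.7 in JP2CR TAC. The part of these features in the results was not tested. Counts without the libraries with Xist, without WT TAC 3 and JP2CR TAC 3, or with both marker means as covariates are given beside the results they move.

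After TAC, transcripts of the mitoribosomal proteins were lower in both genotypes, by small amounts and across most genes. The summed level of the 77 genes was 4391 ± 12.6 CPM in WT sham, with libraries at 4372 to 4400.3, and 3999 ± 63.2 in WT TAC, with libraries at 3907 to 4047 (SD, n = 4 each). In JP2CR it was 4450 ± 123 after sham surgery, at 4333 to 4622, and 3920.0 ± 57.1 after TAC, at 3863 to 3973 (SD, n = 4 each). No TAC library reached a sham library of either genotype. The highest sum, 4622 CPM, was in JP2CR sham 4, the sham library with the lowest atrial marker level. The 50 large-subunit genes summed to 3137 ± 15.5 CPM in WT sham libraries and 2835 ± 45.6 after TAC, and to 3200.2 ± 94.5 and 2782 ± 39.0 in JP2CR (SD, n = 4). The 26 small-subunit genes summed to 1216 ± 7.05 CPM in WT sham libraries and 1134 ± 23.4 after TAC, and to 1210.1 ± 28.4 and 1109 ± 18.8 in JP2CR (SD, n = 4).

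**Figure D1:**
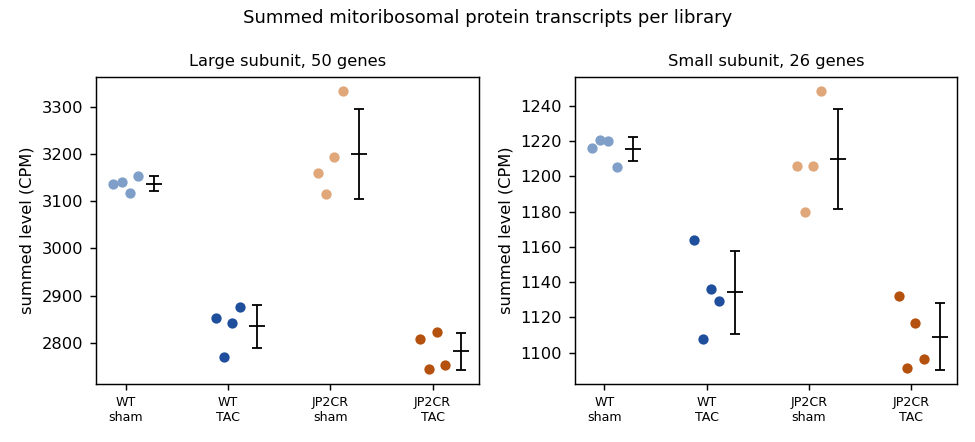
Summed level of the large-subunit genes (left) and of the small-subunit genes (right) in each library, in CPM, by group. Points are libraries and bars are the mean ± SD of 4. Axes do not start at 0. The TAC libraries of both genotypes lie below every sham library in both panels.

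Gene by gene, with edgeR's quasi-likelihood test adjusted over all 13522 genes (called at an adjusted p under 0.05), TAC in WT lowered 37 of the 77 genes and raised 5, and 35 were not called. Of all genes tested, 20.8% were called lower and 21.1% higher in this comparison. The median log2 fold change of the 77 was -0.16, with 61 below 0, against a median of -0.00094 over all genes tested, of which 50.2% were below 0. In JP2CR, TAC lowered 44 and raised 2, and 31 were not called, where 20.7% of all genes were called lower and 20.7% higher. The median there was -0.19, with 67 of 77 below 0, against -0.0042 for all genes tested. No member changed by more than 1.5-fold in either comparison.

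In both comparisons 34 genes were called lower, and 1, Mrps23, was called higher. The share of all genes tested that was called in both was not counted, so these 2 counts have no background beside them. The 4 libraries of each group did not overlap for 32 genes that were lower and 4 that were higher in WT TAC, against 20.97% and 21.01% of all genes tested. In JP2CR this held for 43 lower and 2 higher, against 17.3% and 16.8%. Without the 3 libraries with Xist counts, 27 of the 44 calls in JP2CR remained, and the median was -0.14. Without WT TAC 3 and JP2CR TAC 3, 27 of the 37 lower calls in WT and 35 of the 44 in JP2CR remained. With the atrial and adipocyte marker means as covariates, 16 of the 37 lower calls and 0 of the 5 higher calls in WT remained, while the median was -0.19. The atrial mean log2 CPM was 5.34 to 6.39 in WT sham and 2.37 to 3.68 in WT TAC, and the adipocyte mean 0.852 to 3.74 and -1.81 to -0.513. As neither overlapped, the covariates and TAC cannot be told apart in WT, and calls lost with them have no single reading. The cardiomyocyte markers themselves moved with TAC: their summed level was 106000 to 111050 CPM in WT sham and 85475 to 90735 in WT TAC, 7 of 12 were called lower and 2 higher, and their median log2 fold change was -0.20. In JP2CR 8 of 12 were called lower and 2 higher, with a median of -0.23. Markers of some other cell types moved as well. The 8 fibroblast markers summed to 1705 to 1742 CPM in WT sham libraries against 2208 to 3025 after TAC, and to 1420.1 to 1843 against 2319 to 2840.2 in JP2CR, with 3 called higher in each genotype and 1 lower in JP2CR. The 9 macrophage markers summed to 236 to 262 CPM against 312 to 331 in WT and to 243 to 292 against 340.04 to 395 in JP2CR, with 7 called higher in each genotype and 1 lower in WT. The 7 smooth muscle markers summed to 982 to 1317 CPM against 667 to 889 in WT, with 6 called lower, and to 1172 to 1241 against 757 to 919 in JP2CR, with 4 called lower. Of 10 endothelial markers, 0 were called lower and 0 higher in WT. In JP2CR 2 were called lower and 1 higher, near or under the 20.7% of all genes tested called each way. The part of the marker shifts in the members' result was not tested. In such bulk libraries, fewer cells of a type and less RNA per cell cannot be told apart.

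**Figure D2:**
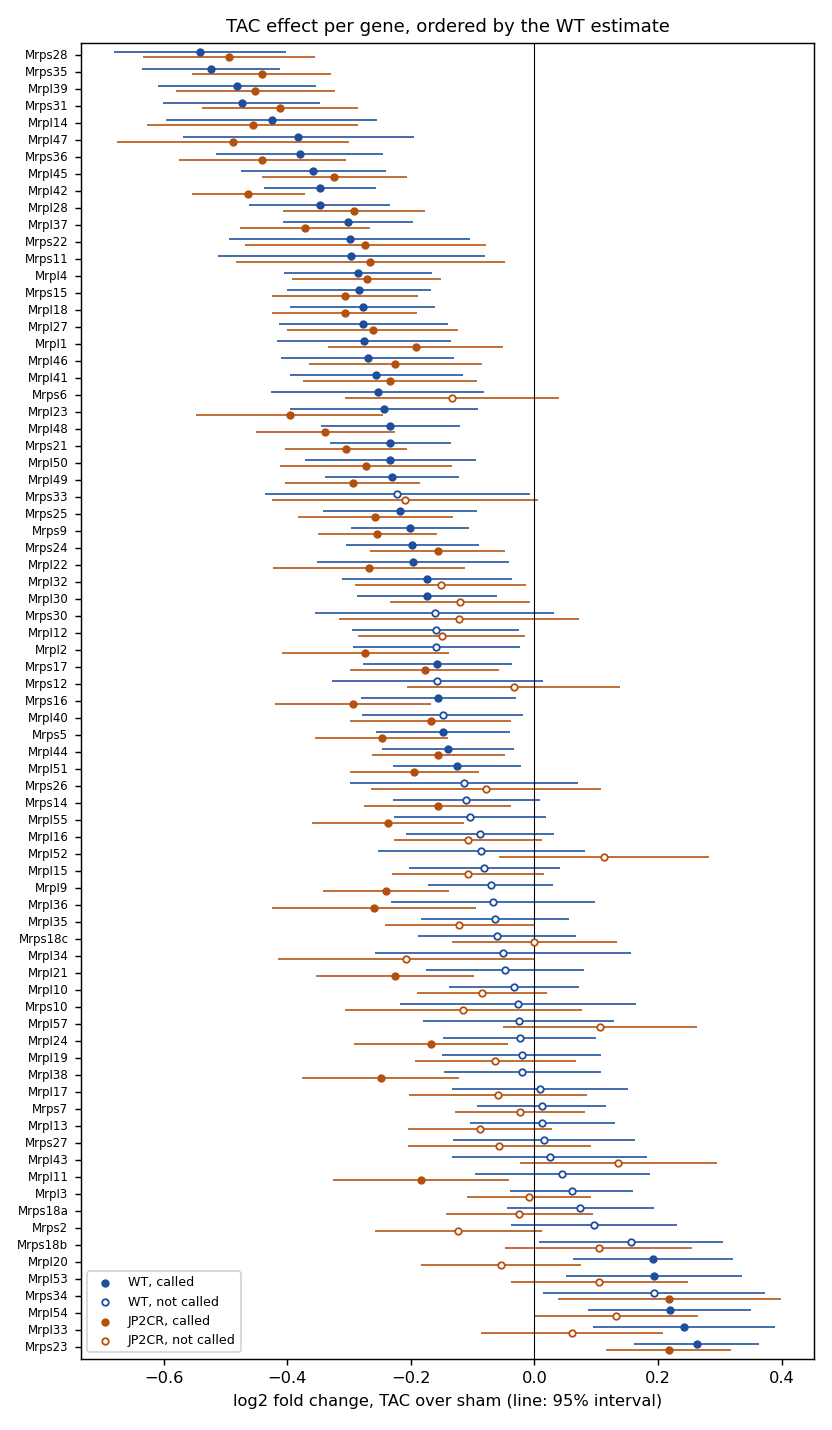
Log2 fold change of TAC over sham for each of the 77 genes in WT and in JP2CR, ordered by the WT estimate, with 95% intervals. Filled points are called at an adjusted p under 0.05. From Mrps28 at the top to Mrps23 at the bottom, most points lie left of 0 in both genotypes.

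The members fell into these classes. Called lower in both genotypes were 20 large-subunit genes, Mrpl1, Mrpl4, Mrpl14, Mrpl18, Mrpl22, Mrpl23, Mrpl27, Mrpl28, Mrpl37, Mrpl39, Mrpl41, Mrpl42, Mrpl44, Mrpl45, Mrpl46, Mrpl47, Mrpl48, Mrpl49, Mrpl50 and Mrpl51, and 13 small-subunit genes, Mrps5, Mrps9, Mrps11, Mrps15, Mrps16, Mrps17, Mrps21, Mrps22, Mrps24, Mrps25, Mrps28, Mrps31 and Mrps35, together with Mrps36. Their log2 fold changes ran from -0.54 to -0.13 in WT and from -0.49 to -0.16 in JP2CR. Mrpl30, Mrpl32 and Mrps6 were called lower in WT alone. Mrpl2, Mrpl9, Mrpl11, Mrpl21, Mrpl24, Mrpl36, Mrpl38, Mrpl40, Mrpl55 and Mrps14 were called lower in JP2CR alone, with log2 fold changes from -0.27 to -0.16 there and from -0.16 to 0.04 in WT. Neither comparison called Mrpl3, Mrpl10, Mrpl12, Mrpl13, Mrpl15, Mrpl16, Mrpl17, Mrpl19, Mrpl34, Mrpl35, Mrpl43, Mrpl52, Mrpl57, Mrps2, Mrps7, Mrps10, Mrps12, Mrps18a, Mrps18b, Mrps18c, Mrps26, Mrps27, Mrps30 or Mrps33, whose log2 fold changes lay between -0.22 and 0.16 in WT and between -0.21 and 0.14 in JP2CR.

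The lowest log2 fold changes in WT were those of Mrps28 and Mrps35, both of the small subunit. Mrps28, whose protein is related to a ribosomal protein of the bacterial small subunit, is at chr3:8802146-8923918 on the minus strand (GRCm38, GENCODE M21). Its level was 41.8, 42.4, 39.3 and 45.0 CPM in the 4 WT sham libraries and 30.2, 27.6, 31.3 and 26.8 in WT TAC, and in JP2CR it was 38.9, 39.0, 41.0 and 40.8 after sham surgery and 28.4, 25.7, 27.96 and 31.1 after TAC. All 8 TAC libraries lay below all 8 sham libraries. The log2 fold change was -0.54 ± 0.066 (SE, adjusted p = 4.5e-06, edgeR) in WT and -0.49 ± 0.066 (adjusted p = 1.6e-05) in JP2CR.

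Mrps35, a protein found only in mitochondrial ribosomes, is at chr6:147042764-147073991 on the plus strand. It was at 75.5, 72.6, 73.5 and 66.4 CPM in WT sham against 49.97, 48.6, 49.1 and 52.7 in WT TAC. In JP2CR it was at 68.7, 70.5, 66.3 and 72.4 against 52.4, 47.9, 52.9 and 51.1. The TAC and sham libraries were again apart in both genotypes, with log2 fold changes of -0.52 ± 0.053 (SE, adjusted p = 5.9e-07, edgeR) in WT and -0.44 ± 0.053 (adjusted p = 5.5e-06) in JP2CR. Mrps31, also without a bacterial counterpart, fell by 0.47 on the log2 scale in WT and by 0.41 in JP2CR, from 44.2, 47.8, 49.4 and 44.2 CPM in WT sham to 31.3, 36.4, 31.9 and 34.0 in WT TAC.

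Among other small-subunit proteins, Mrps12 and Mrps5 are the counterparts of the bacterial proteins that shape the decoding site. The level of Mrps12 ranged from 29.9 to 38.4 CPM in WT sham and from 27.5 to 34.5 in WT TAC, so that the groups overlapped, and it was not called in either genotype (log2 fold changes -0.16 ± 0.081 and -0.03 ± 0.082, SE). Mrps5 was called lower in both, at 34.5, 35.7, 37.2 and 36.5 CPM against 32.7, 32.4, 30.9 and 33.9 in WT and with log2 fold changes of -0.15 ± 0.051 and -0.25 ± 0.051. The WT call of Mrps5 was lost under 9 of 27 other settings, DESeq2 and the covariates among them, and without WT sham 3, WT sham 4, WT TAC 2 or WT TAC 3. Mrps2 was called in neither, at -0.12 in JP2CR and 0.10 in WT, where WT TAC 2 at 47.7 CPM stood apart from the other 3 libraries at 40.0 to 41.0.

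Mrps22, a cardiomyopathy gene, was called lower in both, at 24.2, 19.2, 23.5 and 17.5 CPM in WT sham against 16.5, 17.4, 17.3 and 17.2 in WT TAC. Its sham values spread widely and the lowest one nearly met the highest TAC value. The WT call was lost without WT sham 1 or WT sham 3, and the JP2CR call under 5 settings, each of which left out JP2CR sham 1, 2 or 4 or JP2CR TAC 3. Mrps6 was called lower in WT alone (-0.25 ± 0.082 against -0.13 ± 0.082 in JP2CR). Its annotated exons overlap those of Slc5a3 on the same strand, so its counts are uncertain, and its call was lost without WT TAC 3 or with the covariates. Mrps21, Mrps15, Mrps17 and Mrps25 were called lower in both, with log2 fold changes between -0.31 and -0.16. The Mrps17 call was lost under 9 of 27 other settings in WT, DESeq2, the covariates and leaving out WT sham 1, 2 or 4 or WT TAC 1 or 4 among them. In JP2CR it was lost under 6, among them leaving out JP2CR sham 4, JP2CR TAC 2 or JP2CR TAC 3. The Mrps25 call was lost in WT with the covariates.

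The 3 proteins that share the Mrps18 name sit in different places. Mrps18c is the bacterial type, Mrps18b is a small-subunit protein of mitochondria only and Mrps18a lies in the large subunit. None of the 3 was called after TAC in either genotype. Mrps18b stood at 19.4, 20.2, 23.04 and 23.1 CPM in WT sham and 24.9, 23.2, 23.04 and 24.5 in WT TAC (0.16 ± 0.071, adjusted p = 0.086, edgeR). Mrps18a and Mrps18c were at 0.07 ± 0.056 and -0.06 ± 0.061. Mrps30 was not called either, with log2 fold changes of -0.16 ± 0.092 in WT and -0.12 ± 0.092 in JP2CR.

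In the large subunit, Mrpl39, a protein related to threonyl-tRNA synthetases, fell most in WT. It was at 66.5, 57.9, 60.2 and 59.9 CPM in WT sham and 45.0, 43.6, 41.6 and 44.8 in WT TAC, and at 57.0, 60.8, 60.9 and 65.4 in JP2CR sham and 46.4, 42.5, 41.6 and 47.7 in JP2CR TAC. TAC and sham did not overlap in either genotype, and the log2 fold changes were -0.48 ± 0.061 (SE, adjusted p = 6.6e-06, edgeR) and -0.45 ± 0.061 (adjusted p = 1.7e-05). Mrpl14, the subunit protein that binds the assembly factor Malsu1, fell by 0.43 and 0.46 on the log2 scale (SE 0.081 each), from 52.5, 54.1, 51.9 and 54.9 CPM in WT sham to 40.5, 35.4, 40.1 and 43.1 in WT TAC. JP2CR TAC 1, at 48.4 CPM, lay above the other 3 JP2CR TAC libraries for this gene, at 35.6 to 40.4.

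Mrpl42, at chr10:95480805-95501940 on the minus strand, had the highest level per kilobase of annotated exon of all members, 357 CPM per kilobase in WT sham. It was at 246, 246, 238 and 241 CPM in WT sham and 185, 190.5, 197 and 191 in WT TAC, and at 261, 254, 255 and 283 in JP2CR sham and 186, 190.4, 194 and 194 in JP2CR TAC. The fold changes were -0.35 ± 0.043 (SE, log2, adjusted p = 5.5e-06, edgeR) in WT and -0.46 ± 0.043 (adjusted p = 3.9e-07) in JP2CR, the smallest adjusted p of any member there. JP2CR sham 4 had the highest of these 16 values, and without the 3 libraries with Xist counts the JP2CR value was -0.44 ± 0.049.

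Mrpl45, which lies at the tunnel exit and helps hold the ribosome to the inner membrane, fell by 0.36 in WT and by 0.32 in JP2CR, at 90.0, 83.6, 87.2 and 88.2 CPM in WT sham and 69.6, 64.9, 67.1 and 70.8 in WT TAC. Mrpl28, Mrpl37, Mrpl47, Mrpl48 and Mrpl49 were called lower in both genotypes, with log2 fold changes from -0.49 to -0.23. With the covariates the WT calls of Mrpl28, Mrpl47, Mrpl48 and Mrpl49 were lost. Mrpl48 shares its name with an annotated pseudogene, Mrpl48-ps, and Mrpl47 overlaps Actl6a and Ndufb5 on the other strand, so reads could be shared. Mrpl44, an RNase III-like protein and cardiomyopathy gene, was called lower in both (-0.14 ± 0.051 and -0.16 ± 0.051, SE, log2). Its call was lost under 8 of 27 other settings in WT, leaving out WT sham 2, 3 or 4 or WT TAC 2 or 3 among them, and under 7 in JP2CR, among them leaving out JP2CR sham 1, JP2CR sham 4 or JP2CR TAC 3.

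The stalk that recruits translation factors is built from Mrpl10 and Mrpl12, and neither was called. Mrpl12 was at 182, 198, 172 and 184 CPM in WT sham and 172, 158, 167 and 162 in WT TAC (-0.16 ± 0.064, adjusted p = 0.054, edgeR), and its call passed in WT under 10 of the other settings tried. Mrpl10 stood at -0.03 ± 0.050 in WT and -0.08 ± 0.050 in JP2CR. Mrpl3, of the peptidyl transferase region, was at 102, 95.2, 106 and 97.4 CPM in WT sham and 100.3, 107, 103 and 107 in WT TAC, with log2 fold changes of 0.06 ± 0.047 and -0.01 ± 0.047. Mrps36, the member that is not ribosomal, was called lower in both, at -0.38 ± 0.064 and -0.44 ± 0.064, and 3 annotated pseudogenes carry its name.

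Against the direction of most members, Mrps23 rose in both genotypes. This small-subunit protein, found only in mitochondrial ribosomes, is at chr11:88204388-88211507 on the plus strand. It was at 162, 162, 159 and 165 CPM in WT sham and 195, 185, 203 and 196 in WT TAC, and at 160, 153, 165 and 165 in JP2CR sham and 195, 191, 191 and 171 in JP2CR TAC. All 8 TAC libraries lay above all 8 sham libraries, and the log2 fold changes were 0.26 ± 0.048 (SE, adjusted p = 0.00027, edgeR) and 0.22 ± 0.048 (adjusted p = 0.0016). With JP2CR sham 3 and 4 and JP2CR TAC 4 left out, the JP2CR value was 0.30 ± 0.052. The WT call was lost with the atrial and adipocyte means as covariates.

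The other 4 genes called higher in WT were all of the large subunit. Mrpl33, whose bacterial counterpart sits near the tRNA exit site, was at 60.6, 50.2, 56.8 and 54.6 CPM in WT sham and 62.3, 63.9, 64.1 and 72.0 in WT TAC (0.24 ± 0.070, SE, log2). Mrpl54 was at 37.7, 37.9, 37.9 and 35.1 against 47.3, 38.8, 43.4 and 43.4 (0.22 ± 0.062), and in JP2CR its groups were also apart but the gene was not called (0.13 ± 0.063, adjusted p = 0.10, edgeR). Mrpl53 and Mrpl20 each had a log2 fold change of 0.19 in WT, and Mrpl53, like Mrpl33, overlaps another annotated gene on its own strand. The Mrpl53 call was lost under 6 of 27 other settings, with the covariates and without WT sham 1, WT sham 3, WT TAC 1 or WT TAC 3 among them. The Mrpl20 call was lost under 4, with the covariates and without WT sham 3, WT TAC 2 or WT TAC 4. Mrps34 was the second gene called higher in JP2CR, at 0.22 ± 0.086 with an adjusted p of 0.04998, and 19 of the other settings ended that call.

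**Figure D3:**
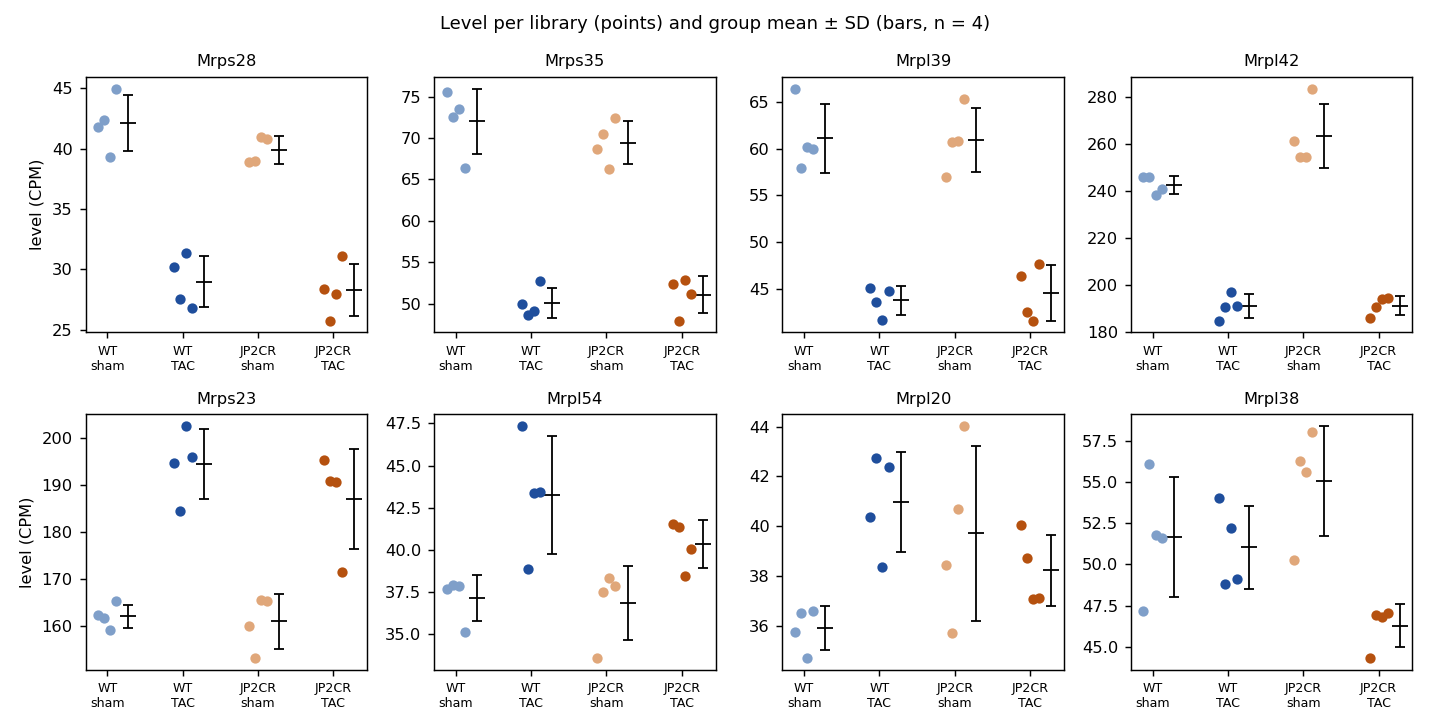
Level in CPM of 8 genes in each library, with the group mean ± SD of 4 beside the points. The upper row shows 4 genes that fell in both genotypes. The lower row shows Mrps23, which rose in both, Mrpl54 and Mrpl20, called higher in WT, and Mrpl38, called lower in JP2CR. Axes do not start at 0.

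The responses of the 2 genotypes were compared directly as the difference of the TAC effects, JP2CR minus WT. No member was called, 0 lower and 0 higher, by edgeR's quasi-likelihood test, by DESeq2 or by limma voom, and 5 of 77 had an unadjusted p under 0.05 in the main test. Of all 13522 genes tested, 1395 had an unadjusted p under 0.05, and 0.0296% were called lower and 0.0887% higher. The differences ran from -0.25 to 0.20 with a median of -0.04, and the 95% interval of the typical member reached 0.18 on the log2 scale to either side.

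The lowest unadjusted p belonged to Mrpl20. It was at 35.7, 36.5, 34.7 and 36.6 CPM in WT sham and rose to 40.4, 42.8, 38.4 and 42.4 in WT TAC, while in JP2CR it was at 38.4, 35.7, 40.7 and 44.0 after sham surgery and 40.0, 38.7, 37.1 and 37.1 after TAC. The difference of the effects was -0.25 ± 0.087 (SE, log2, adjusted p = 0.29, edgeR) with all libraries. The highest JP2CR values of Mrpl20, 40.7 and 44.0 CPM, were those of sham 3 and 4, which held Xist counts. Without the libraries with Xist, JP2CR sham was at 38.4 and 35.7 and JP2CR TAC at 40.0, 38.7 and 37.1, so sham was not above TAC. For Mrpl38, a large-subunit protein with a phosphatidylethanolamine-binding fold, WT values overlapped at 47.2, 56.1, 51.8 and 51.6 against 54.0, 48.8, 52.2 and 49.1. In JP2CR they were apart at 50.3, 56.3, 55.6 and 58.0 against 44.3, 46.9, 46.8 and 47.1, and the difference was -0.23 ± 0.085 (adjusted p = 0.33). The JP2CR call of Mrpl38 was lost when the libraries with Xist were left out. For Mrpl9, a large-subunit protein with a bacterial counterpart, the difference was -0.17 ± 0.068 (adjusted p = 0.37). The 10 genes called lower in JP2CR and not in WT, and the 3 called lower in WT and not in JP2CR, were therefore not shown to respond differently.

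**Figure D4:**
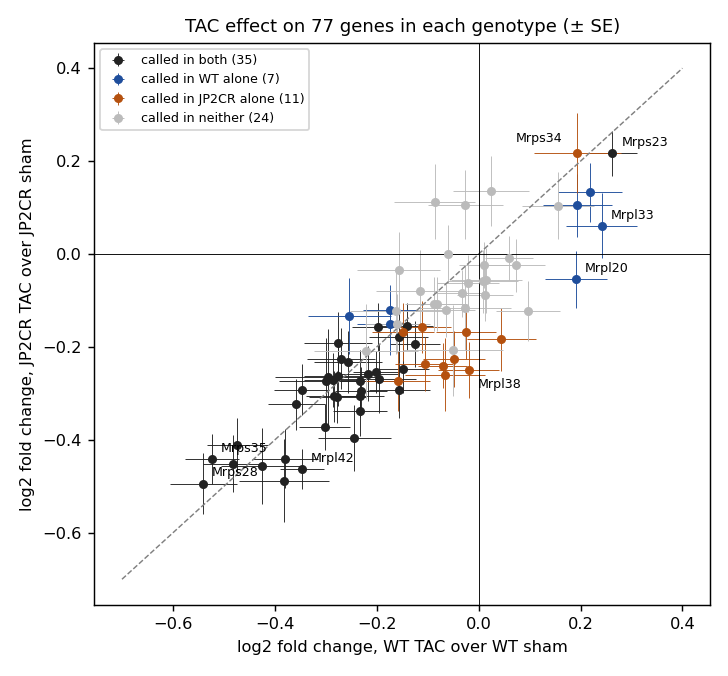
Log2 fold change of TAC over sham in WT (x axis) against JP2CR (y axis) for the 77 genes, with SE bars and the line of equal effect. Colours mark where a gene was called: 35 in both, 7 in WT alone, 11 in JP2CR alone and 24 in neither. Mrpl20 and Mrpl38 lie farthest below the line among the named genes.

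The genotypes were also compared within each surgery. After sham surgery 0.0961% of all genes were called lower and 0% higher in JP2CR, and 1078 of 13522 had an unadjusted p under 0.05 (edgeR). Of the 77 members, 0 were called lower and 0 higher by edgeR's test, DESeq2 or limma voom, and 4 had such a p. Mrpl21 had the lowest p, at 35.9, 36.3, 36.8 and 40.5 CPM in JP2CR sham against 31.2, 31.8, 34.5 and 32.8 in WT sham (0.20 in log2, adjusted p = 0.35, edgeR), followed by Mrpl23 (0.20) and Mrpl42 (0.12), and these 3 were the members whose groups did not overlap. Across all genes, 1.98% did so in this direction.

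After TAC, 0.288% of all genes were called lower and 0.362% higher in JP2CR, and 1740 of 13522 had an unadjusted p under 0.05 (edgeR). Again 0 members were called in either direction by any of the 3 tools, and 4 had such a p. Mrps2 came first, at 37.3, 37.3, 38.3 and 39.1 CPM in JP2CR TAC against 41.0, 47.7, 41.0 and 40.0 in WT TAC (-0.16, adjusted p = 0.29, edgeR), then Mrpl10 (-0.12) and Mrpl38 (-0.14). The libraries were apart for 4 members, all lower in JP2CR, against 4.13% of all genes tested.

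By origin, the 46 proteins with a bacterial counterpart and the 30 found only in mitochondrial ribosomes were counted apart. In WT, 21 of 46 were called lower and 2 higher, against 15 of 30 lower and 3 higher. In JP2CR, the counts were 26 of 46 lower and 0 higher, against 17 of 30 lower and 2 higher. Small-subunit genes were called lower in 14 of 26 and higher in 1 for WT and in 14 and 2 for JP2CR, and large-subunit genes in 22 of 50 and 4 for WT and in 29 and 0 for JP2CR. Among all genes tested, the shares called were 20.8% lower and 21.1% higher in WT, and 20.7% lower and 20.7% higher in JP2CR. No difference between the classes of origin or subunit was tested.

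Levels were set side by side per kilobase of annotated exon. The highest members in WT sham were Mrpl42 at 357 CPM per kilobase, Mrpl30 at 150.2, Mrpl12 at 140, Mrps21 at 119 and Mrpl33 at 116. The lowest were Mrpl17 at 5.58, Mrps25 at 6.04, Mrpl47 at 6.20, Mrps17 at 7.15 and Mrpl57 at 7.31, and the median was 35.4. Exon lengths here are the union over the protein-coding transcripts of the basic GENCODE M21 annotation and ran from 478 to 7605 bases. The value falls with each transcript that adds exon sequence to the union.

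The chromosomal surroundings and promoters of the genes were read from the reference annotation as a description. In GENCODE M21, 18 of the 77 genes (23.4%) have the start of another protein-coding gene within 1000 bases on the opposite strand and pointing away, against 6.79% of 21951 protein-coding genes. The closest pairs were Mrpl54 with Apba3 at 26 bases and Mrps34 with Eme2 and Mrps18c with Helq at 29 bases each. Mrps12 lies 172 bases from Sars2, the mitochondrial seryl-tRNA synthetase. RefSeq promoter windows of 300 bases were matched for 68 of the 77 genes, and Mrpl4, Mrpl13, Mrpl15, Mrpl19, Mrpl38, Mrpl54, Mrps28, Mrps34 and Mrps35 had no entry.

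For orientation, 3 motifs of factors known to control nuclear genes of mitochondria were searched on both strands of these windows. They were the NRF1 site (GCGC, any base, TGCGC), the ETS core bound by GABPA (CCGGAAG) and the YY1 site (AAGATGGC). NRF1 letters were in 19.1% of the matched members and 7.44% of 16522 protein-coding genes, ETS in 36.8% and 13.4%, and YY1 in 17.6% and 3.64%. At least 1 of the 3 was in 42 of the 68, or 61.8%, against 21.6%. Of 31 matched genes called lower in both genotypes, 18 held at least 1, and of 21 called in neither, 16 did. The windows of 5 genes are shown, 5′ to 3′ on the gene's strand, for 4 genes that fell in both genotypes, with and without a match, and for Mrps23, which rose in both, with any matched letters in capitals. Mrps31 (RefSeq GRCm38.p6, chr8:22411090-22411389, plus strand) holds none of the 3 motifs, and neither do the windows of Mrpl28 and Mrpl47. Mrpl39 (chr16:84735195-84735494, minus strand) holds an NRF1 match whose letters read the same on both strands. Mrpl14 (chr17:45686099-45686398, plus strand) holds an NRF1 match on the strand opposite to that printed. Mrpl42 (chr10:95501900-95502199, minus strand) holds a YY1 match on the printed strand. Mrps23 (chr11:88204138-88204437, plus strand) holds an ETS match on the opposite strand.
Mrps31: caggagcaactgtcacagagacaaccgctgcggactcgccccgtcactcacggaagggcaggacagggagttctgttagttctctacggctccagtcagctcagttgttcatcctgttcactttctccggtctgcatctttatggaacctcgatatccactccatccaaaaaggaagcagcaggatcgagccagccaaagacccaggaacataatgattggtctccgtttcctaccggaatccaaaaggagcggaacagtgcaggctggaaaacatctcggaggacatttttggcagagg
Mrpl39: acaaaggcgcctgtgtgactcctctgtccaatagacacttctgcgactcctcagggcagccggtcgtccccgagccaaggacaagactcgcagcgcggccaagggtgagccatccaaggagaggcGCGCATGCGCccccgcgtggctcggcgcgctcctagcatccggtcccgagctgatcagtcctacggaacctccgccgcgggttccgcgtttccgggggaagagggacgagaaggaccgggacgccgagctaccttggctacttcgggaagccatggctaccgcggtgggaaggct
Mrpl14: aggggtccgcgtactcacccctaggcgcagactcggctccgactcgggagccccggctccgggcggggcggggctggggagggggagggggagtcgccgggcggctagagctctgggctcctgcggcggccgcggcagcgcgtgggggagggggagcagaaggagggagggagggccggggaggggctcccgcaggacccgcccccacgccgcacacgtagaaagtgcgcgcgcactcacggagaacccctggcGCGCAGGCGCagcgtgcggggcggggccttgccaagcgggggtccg
Mrpl42: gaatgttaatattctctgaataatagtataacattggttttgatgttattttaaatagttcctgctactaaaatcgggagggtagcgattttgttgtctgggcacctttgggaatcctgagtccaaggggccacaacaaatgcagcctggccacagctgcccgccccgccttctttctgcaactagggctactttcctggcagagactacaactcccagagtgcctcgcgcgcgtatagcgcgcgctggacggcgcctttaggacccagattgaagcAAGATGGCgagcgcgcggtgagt
Mrps23: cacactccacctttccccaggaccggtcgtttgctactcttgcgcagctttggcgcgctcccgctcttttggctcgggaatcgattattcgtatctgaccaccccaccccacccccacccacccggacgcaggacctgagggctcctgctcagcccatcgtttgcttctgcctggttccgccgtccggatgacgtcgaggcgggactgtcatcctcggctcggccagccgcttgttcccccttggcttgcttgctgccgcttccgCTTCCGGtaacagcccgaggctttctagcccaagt
A match of letters is a description of the window and was not tested as a binding site.

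The members were set beside the other genes of the mitochondrial translation system. Of 6 mitoribosomal proteins filed under other symbols, 4 were called lower and 0 higher in WT, and 3 and 0 in JP2CR. Dap3, a small-subunit protein that binds GTP, fell by 0.36 on the log2 scale in WT and by 0.35 in JP2CR, and Ict1, the large-subunit peptidyl-tRNA hydrolase also called Mrpl58, fell by 0.29 and 0.26. Of 19 translation factors and tRNA-charging enzymes, 10 were called lower and 0 higher in each genotype, Gfm1, the elongation factor G of mitochondria, at -0.24 in both, and Lars2, the leucyl-tRNA synthetase, at -0.30 and -0.19.

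Of 25 assembly factors, 9 were called lower and 1 higher in WT and 15 and 1 in JP2CR. Mrm1, a methyltransferase of the large ribosomal RNA, fell by 0.54 and 0.59, and Eral1, the small-subunit RNA chaperone, fell by 0.43 and 0.45. Trub2, a pseudouridine synthase, was the gene called higher, at 0.34 and 0.28. Of 22 genes of mitochondrial DNA upkeep, transcription and RNA processing, 5 were called lower and 1 higher in WT. In JP2CR, 8 were called lower and 2 higher. Hsd17b10, a subunit of mitochondrial RNase P, was at -0.37 and -0.38. The shares of all genes tested were 20.8% lower and 21.1% higher in WT, and 20.7% lower and 20.7% higher in JP2CR. For the 22 genes, the lower count in WT was near that share. In the difference of the TAC effects, 0 genes were called in each of these lists.

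The nuclear-encoded respiratory chain, whose partners the mitoribosome makes, was lower after TAC as well. Of 82 tested genes, 71 were called lower in WT and 74 in JP2CR, with 0 higher, and the medians were -0.32 and -0.32, against -0.16 and -0.19 for the 77 members. Whether these medians differ was not tested. Cox7a1, the heart and muscle isoform of a cytochrome oxidase subunit, fell by 0.77 in both. The cytosolic ribosome gave other counts. In WT, 3 of 80 tested entries were called lower and 15 higher (median 0.03), and in JP2CR 15 lower and 1 higher (median -0.07). Across all genes tested, 20.8% were called lower and 21.1% higher in WT, and 20.7% each way in JP2CR. The counts of 15 of 80 were near these shares. The cytosolic list was taken by symbol, and kinases and a binding protein that the symbols also matched were removed after values had been seen. With them it held 91 entries, 5 lower and 18 higher in WT and 16 and 5 in JP2CR. Among these 91, 0 were called lower and 0 higher in the difference of the TAC effects.

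**Figure D5:**
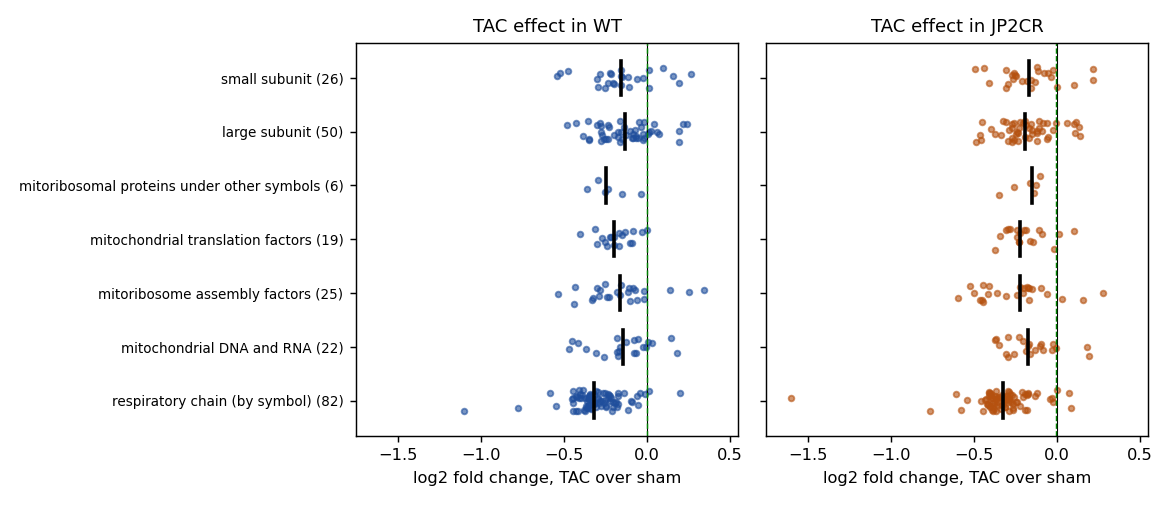
Log2 fold change of TAC over sham in WT (left) and JP2CR (right) for the members of the small and large subunit and for related lists, with the number of genes tested in brackets. Each point is a gene, the black bar is the list's median and the dashed line the median of all genes tested. The respiratory chain has the lowest median in both panels.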

How the data were processed

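Ventricular RNA was selected for polyadenylation and sequenced from stranded libraries, per the labels' protocols. The submitters' processing notes list FastQC 1.0.0, STAR 2.5.0b, Picard 1.128, bedtools 2.17.0, Cufflinks 2.2.1 and DESeq2 1.6.3, with mm10 as the build. Which tool counted reads, on which annotation and with or without strand, is not given in the sources used here, so reads of overlapping genes (5 members on the same strand, 21 on the opposite strand) and of 5 annotated pseudogenes may be shared. The values tested were whole-number counts per gene deposited by the authors, not normalized. The authors' deposited table also holds log2 fold changes and adjusted p-values, and for the sham libraries other values that include text. The authors' deposited table called 32 members lower and 6 higher for TAC in WT, 33 and 1 in JP2CR, and 0 in sham.

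The members, lists and settings were chosen with earlier results of these data known. Genes were kept by filterByExpr and scaled by TMM, and edgeR 4.0.16 (R 4.3.3) fitted 1 mean per group over 16 libraries with a quasi-likelihood F test and Benjamini-Hochberg adjustment over 13522 genes. The standard error is the log2 fold change over the root of F. CPM used TMM-scaled totals. The code was tested on simulated data. Named members were the 12 lowest p among called genes and the 5 extreme fold changes per TAC comparison, up to 8 called higher, the 3 lowest p of each other comparison, the 5 highest and lowest levels per kilobase, and 15 by role, with up to 4 genes of each other list by p in WT, of which some are printed. Alternatives were DESeq2 1.42.0, limma voom 3.58.1, other scalings, filters and thresholds, a replicate block, covariates and left-out libraries. Coordinates are from GENCODE M21 (GRCm38), and figures used matplotlib 3.10.9.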

Additional observations from a re-analysis of the deposited data

Results flagged for a closer look

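In groups of 4 libraries, 12 of 184 sets checked (45 named members and the members' sum, in 4 groups) held a library whose gap to the nearest other one, divided by the group's range, passed Dixon's 95% critical value for 4 samples. Chance alone flags about 1 in 20 groups. In WT sham, Mrpl54 was at 35.1 CPM in library 4 with the nearest other at 37.7, Mrpl57 at 22.04 in library 2 with the nearest at 20.8, and Mrps17 at 44.4 in library 1 with the nearest at 42.5. In WT TAC, Mrpl48 was at 40.3 CPM in library 3 (nearest 38.4), Mrpl49 at 41.2 in library 1 (nearest 38.8) and Mrps2 at 47.7 in library 2 (nearest 41.0). In JP2CR sham, Mrpl37 was at 98.5 CPM in library 4 (nearest 88.6), Mrps2 at 46.6 in library 4 (nearest 40.4), Mrps18c at 24.2 in library 3 (nearest 22.4) and Mrps21 at 56.7 in library 2 (nearest 61.9). In JP2CR TAC, Mrpl38 was at 44.3 CPM in library 1 (nearest 46.8) and Mrpl52 at 24.3 in library 3 (nearest 21.1).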

How the results depend on the processing

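TAC in WT called 37 members lower and JP2CR 44, and medians stayed between -0.19 and -0.13 in WT and between -0.20 and -0.14 in JP2CR over all alternatives run. With both marker means as covariates, which cannot be told apart from TAC in WT, WT gave 16 lower and 0 higher. At an adjusted p under 0.01, 3 were higher in WT and 1 in JP2CR. Without the 3 libraries with Xist counts, 27 were lower in JP2CR. Only 1 member was higher in JP2CR with limma voom, upper-quartile factors, only the groups compared, the replicate block, the covariates, or without WT TAC 3 and JP2CR TAC 3. The causes were not tested. With 1 library left out, WT gave 30 to 39 lower and 3 to 6 higher (3 without WT sham 3), and JP2CR 34 to 44 lower and 1 to 2 higher. Deviations of same-numbered libraries of different groups had correlations from -0.18 to 0.12 (24 pairs, 1 over 0.1). Pairs with different numbers were not computed, so this check cannot show whether the numbers pair the libraries. The replicate block kept 34 of the WT and 42 of the JP2CR lower calls. Counts of 0 for the difference of the TAC effects and for both genotype comparisons were 0 in all alternatives run, and no called value reversed.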
